A study of Mus musculus with 2 samples.

Results

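Malat1, Neat1 and Kcnq1ot1 are 3 long noncoding RNAs that stay in the nucleus, and they are 3 of the 45777 genes of the deposited liver transcript table. They are listed there as 4 of 129299 RefSeq transcripts, 1 for Malat1, 1 for Kcnq1ot1 and 2 for Neat1. They were chosen from the estimated read counts of these same livers because those counts were far higher with AAV-Wee1-AS than with AAV-GFP, with no numerical threshold, so their ratios between the groups are given as a description and no test is attached to them. C57BL/6 N mice were fed a high-fat diet (HFD) for 18 weeks from the age of 7 weeks, and at week 13 received an adeno-associated virus that carried either GFP (AAV-GFP, the control) or the long noncoding RNA Wee1-AS (AAV-Wee1-AS). Both vectors were injected into the retro-orbital sinus. For AAV-Wee1-AS the study's methods give serotype AAV9 and a CMV promoter, neither of which is restricted to hepatocytes. Livers were taken 5 weeks after the vector, and poly-A RNA was sequenced. No low-fat group was analysed here, so both groups share the diet. The comparison addresses what the vector-borne Wee1-AS changes in the fatty liver.

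One library per group was analysed, and the AAV-GFP library held 55466182 estimated counts and the AAV-Wee1-AS library 48079335, whereas the design text of the series mentions 4 liver samples. No spread between mice can be estimated and no p-value is given. The intervals below are exact 95% intervals for counting error alone, and the sex of the mice and any pooling are not given in the sources used here. The hepatocyte markers were at a summed level of 78258 TPM (the deposited level per transcript length, scaled to the same sum in each library) with AAV-GFP and 88833 TPM with AAV-Wee1-AS, so both libraries hold liver RNA. Of the other cell types, the 7 stellate cell and fibroblast markers summed to 189 and 132 TPM, the 7 Kupffer cell markers to 375 and 292 TPM, the 7 endothelial markers to 149 and 125 TPM, and the 5 red cell markers to 3357 and 1789 TPM, AAV-GFP first. The 5 cholangiocyte markers summed to 44.1 and 37.9 TPM, the 5 lymphocyte markers to 5.11 and 3.17 TPM, and the 4 neutrophil markers to 13 and 6.18 TPM. These sums cover opposite moves. Of all genes with at least 10 counts in 1 library or both, 22.2% were past 2-fold higher and 8.71% lower. Of the 8 hepatocyte markers, 2 were past 2-fold higher (Apob 1.82 and Cps1 1.21, log2 ratios), and 3 had a log2 ratio below 0. Of the stellate cell and fibroblast markers, 4 of 7 were past 2-fold lower (Col1a1 -2.32, Col3a1 -2.03, Col1a2 -2.02 and Acta2 -1.73, log2 ratios), 1 was past 2-fold higher (Lrat, 1.46), and the median was -1.73, while Dcn, with 74.2 and 92.0 TPM, held much of the sum. Of the Kupffer cell markers, 3 of 7 were past 2-fold higher (Marco 1.60, Vsig4 1.52 and Timd4 1.40) although the sum of the 7 was lower. Another 3 were lower but within 2-fold, Cd68 (-0.88), Cd5l (-0.76) and Clec4f (-0.15, which turned to 0.25 with trends in GC content and length removed). Once trends with GC content and length were removed, 1 of the 7 Kupffer cell markers (Marco) and 0 of the 8 hepatocyte markers were past 2-fold higher. Lrat was then at 0.07, while the 4 stellate cell and fibroblast markers stayed past 2-fold lower. Of all genes, 7.0% were then past 2-fold higher and 7.66% lower. Ly6g, a defining neutrophil marker, was at 0 counts in both libraries. The B cell marker Ms4a1 had 0 counts with AAV-GFP and 23 with AAV-Wee1-AS, while the other 4 lymphocyte markers were lower. In whole liver, fewer cells of a type and less RNA per cell cannot be told apart, and the part of cell makeup in the values below was not tested.

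Malat1 is among the most abundant nuclear RNAs of mammalian cells and collects in nuclear speckles, the bodies that store splicing factors. Its primary transcript ends in a transfer RNA-like fold that RNase P cuts off, which leaves the long RNA without a poly-A tail and with an encoded A-rich tract, held in a triple helix, at its 3′ end. Neat1 is the scaffold of paraspeckles, and is made as a short form with a poly-A tail and a long form that runs on from the same start, is cut by RNase P as Malat1 is, and is the form that builds the body. Kcnq1ot1 is a very long, unspliced RNA read from the paternal chromosome across the Kcnq1 gene on the opposite strand, and it silences the neighbouring imprinted genes in cis.

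All 3 genes lie on the minus strand of mm10. Malat1 (NR_002847) is at chr19:5795690-5802672. Neat1 lies upstream of it with 22035 bases between them, the long form (NR_131212) at chr19:5824708-5845478 and the short form (NR_003513) at chr19:5842296-5845480. Kcnq1ot1 (NR_001461) is at chr7:143213111-143296547, and with its 83437 bases it is the longest gene of all those that passed the count filter used here. The 3′ ends and A runs of these RNAs are shown because the libraries were made from poly-A RNA. They were read from GENCODE M21 transcripts (GRCm38, the same assembly as mm10), 5′ to 3′ on the minus strand. The first is the end of the long Malat1 RNA just before the tRNA-like fold, at chr19:5795982-5796101. The second is that fold, the small RNA mascRNA, at chr19:5795924-5795981. The third is the end of the short Neat1 form, at chr19:5842296-5842375. The last is the longest A run of Kcnq1ot1, at chr7:143226915-143227015. Capitals mark the longest A run in Malat1 and in Kcnq1ot1 and the polyadenylation signal AATAAA in Neat1.
Malat1 3′ end: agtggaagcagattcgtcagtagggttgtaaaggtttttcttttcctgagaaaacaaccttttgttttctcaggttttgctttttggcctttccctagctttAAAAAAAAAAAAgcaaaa
mascRNA: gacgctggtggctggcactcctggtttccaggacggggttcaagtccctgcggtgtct
Neat1 short form end: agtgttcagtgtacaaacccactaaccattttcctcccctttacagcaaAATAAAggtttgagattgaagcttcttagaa
Kcnq1ot1 A run: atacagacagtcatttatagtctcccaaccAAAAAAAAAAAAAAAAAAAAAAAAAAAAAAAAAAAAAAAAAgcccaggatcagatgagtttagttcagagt

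The A run of Malat1 is 12 bases long and starts at position 6674 of 6983. It is the only run of at least 12 in that RNA, where the next longest has 6. The long form of Neat1 has no A run above 7 bases and the short form none above 5. Kcnq1ot1 has a run of 41 bases that starts at position 69563, and 4 runs of at least 20 bases. For comparison, 10.3% of the 15105 genes with a sequence had an A run of at least 12 bases in their longest transcript and 7 genes had one of at least 40. Malat1 has 42.5% GC, Kcnq1ot1 40.8% (40.3% in the GENCODE model that serves for the comparison over genes), the long Neat1 form 47.3% and the short form 51.2%, beside a median of 49.8% over all genes with a sequence.

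Malat1 had 148 estimated counts with AAV-GFP and 4652 with AAV-Wee1-AS. Per length, its level was 0.643 TPM and 23.9 TPM. Among genes with a level above 0 it stood at place 12133 of 18753 in the AAV-GFP library and at place 3064 of 18798 in the AAV-Wee1-AS library. Its level in the AAV-GFP library was thus below that of most genes detected, although Malat1 is known as one of the most abundant RNAs of the nucleus. The long Malat1 RNA has no poly-A tail and poly-A RNA was sequenced, so this place need not be its place in the cell. The part of poly-A selection was not tested. After scaling of the libraries by the TMM method, the count ratio was 37.7-fold, a log2 ratio of 5.22 (counting interval 5.0 to 5.48). Log2 ratios here are of scaled counts with a prior count of 2. Of the 15857 genes with at least 10 counts in 1 library or both, 5 had a higher log2 ratio, and each of those 5 had at most 3 counts in the AAV-GFP library. Among the 11565 genes with at least 100 counts in either library, 1 had a higher ratio, Gm6548 with 2 and 142 counts. The mascRNA row, a small RNA of 58 bases, had 0 and 1 count, and since the deposited counts are rounded up and its FPKM with AAV-Wee1-AS was 3.7e-05, the 1 count stands for far less than a read.

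Neat1 had 380 counts with AAV-GFP and 2390 with AAV-Wee1-AS, summed over both forms. Its level was 3.11 TPM and 18.9 TPM, at place 8311 of 18753 and place 3587 of 18798. The scaled counts differed 7.55-fold, a log2 ratio of 2.91 (2.76 to 3.08), and 182 genes of 15857 had a higher log2 ratio. The rank of Neat1 among the ratios was thus well below that of Malat1.

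The short Neat1 form had 316 counts with AAV-GFP and 1555 with AAV-Wee1-AS, a log2 ratio of 2.55 (2.39 to 2.74). Its level was 3.01 TPM and 17.5 TPM. The long form had 64 and 835 counts, a log2 ratio of 3.92 (3.6 to 4.36), and a level of 0.0932 TPM and 1.44 TPM. The long form was higher 15.7-fold and the short form 5.91-fold, in scaled counts. The forms also differ in GC content and length, given above, and the part of either in this difference was not tested. The long form held 16.8% of the gene's counts with AAV-GFP (exact binomial interval 13.2 to 21) and 34.9% with AAV-Wee1-AS (33.0 to 36.9). On the TPM scale its share was 3.0% and 7.60%, and the short form stood 32.3 times above the long form with AAV-GFP and 12.1 times with AAV-Wee1-AS. In these poly-A libraries the short form therefore had the higher level per length in both groups. The short form is the one with a poly-A tail, and the part of poly-A selection in its level was not tested. All but 2 bases of the short form overlap the long form, which has 17588 bases of its own, and the authors' program shared reads of the common stretch between both rows, so these intervals do not cover errors of that division. The study's primer pair for Neat1 is shown because it lies in the common stretch. The sense primer starts at position 763 and the antisense primer, which is read from the other strand, ends its 106-base product, and they match both forms at chr19:5844695-5844716 and chr19:5844611-5844631.
Neat1 sense primer: ctcttctgtggtctcactcttc
Neat1 antisense primer: ctacatcctccacaggcttac

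Kcnq1ot1 had 0 counts with AAV-GFP and 25 with AAV-Wee1-AS (exact Poisson interval 16.2 to 36.9). Its level was 0 and 0.0107 TPM, and it stood at place 18397 of the 18798 genes detected with AAV-Wee1-AS. Spread over its length, the 25 counts come to 0.30 counts per kb. Against a floor of 3 counts in the AAV-GFP library, it was at least 10-fold higher with AAV-Wee1-AS, a log2 ratio of at least 3.32, if the 25 counts are taken as exact. With counting error in both libraries, the interval of the log2 ratio starts lower, at 2.92, and is open at the top. The fitted log2 ratio of 3.88 depends on the prior count and is no bound. Kcnq1, the potassium channel gene that it overlaps on the opposite strand, had 97 and 66 counts, a log2 ratio of -0.28 (-0.77 to 0.17). The libraries were stranded, but whether the authors' counts used the strand is not given in the sources used here, so reads of the 2 genes may have been exchanged.

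**Figure D1:**
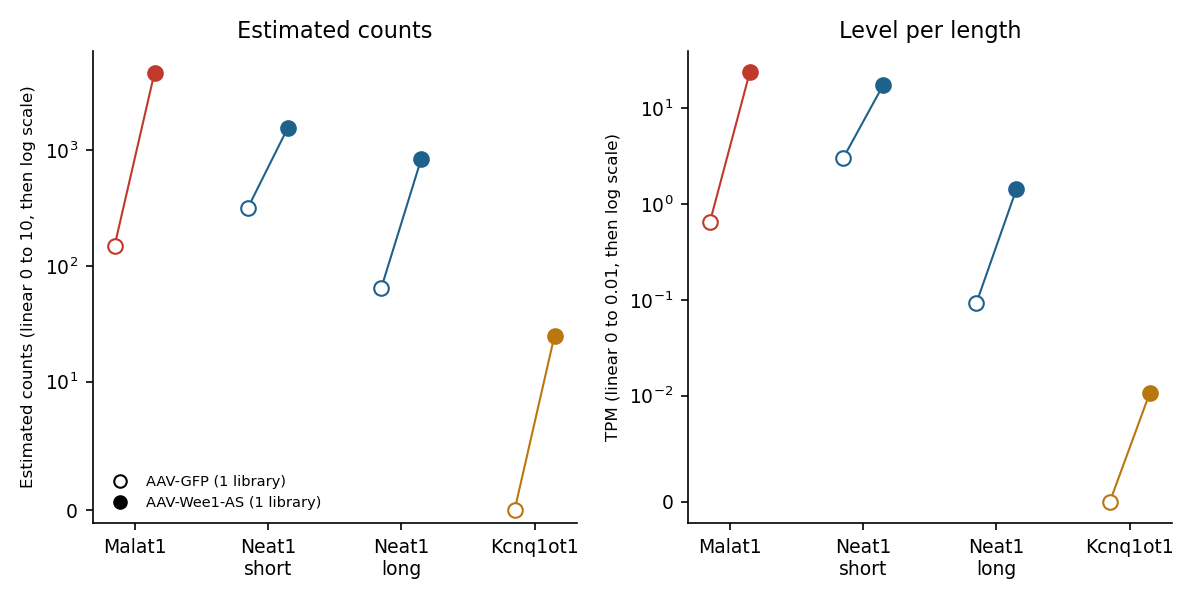
Estimated counts (left) and TPM (right) of the 4 transcripts in the AAV-GFP library (open circles) and the AAV-Wee1-AS library (filled circles), 1 library each, on axes that are linear near 0 and logarithmic above. Each transcript is higher with AAV-Wee1-AS, Malat1 from 148 to 4652 counts and Kcnq1ot1 from 0 to 25, and the order per length changes from Neat1 short, Malat1, Neat1 long to Malat1, Neat1 short, Neat1 long.

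The order of the levels per length differed between the libraries. With AAV-GFP, Neat1 (3.11 TPM) was above Malat1 (0.643 TPM), and Kcnq1ot1 was at 0. With AAV-Wee1-AS, Malat1 (23.9 TPM) was above Neat1 (18.9 TPM), and Kcnq1ot1 stayed last (0.0107 TPM). The Malat1 to Neat1 ratio of TPM was 0.207 and 1.26. Whether Malat1 and Neat1 differ in either group beyond the spread between livers cannot be said from 1 library. Together the 3 genes took 528 counts with AAV-GFP (9.52 CPM, the count scaled to the library total) and 7067 with AAV-Wee1-AS (147 CPM). Malat1 held 28.0% of them with AAV-GFP and 65.8% with AAV-Wee1-AS.

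The libraries differed widely beyond these genes. Past 2-fold, AAV-Wee1-AS had 3527 of the 15857 genes higher (22.2%) and 1381 lower (8.71%). With the whole counting interval past 2-fold, 2542 genes were higher (16.0%) and 590 lower (3.72%). All 3 members were past 2-fold higher with their whole interval, which is the contrast they were chosen by and is no finding. The middle 95% of all genes lay between log2 ratios of -1.82 and 2.52. Of the 1115 genes with noncoding transcripts alone, 26.9% were past 2-fold higher and 12.6% lower, and the median log2 ratio was 0.18, beside a median of -0.02 over all genes.

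**Figure D2:**
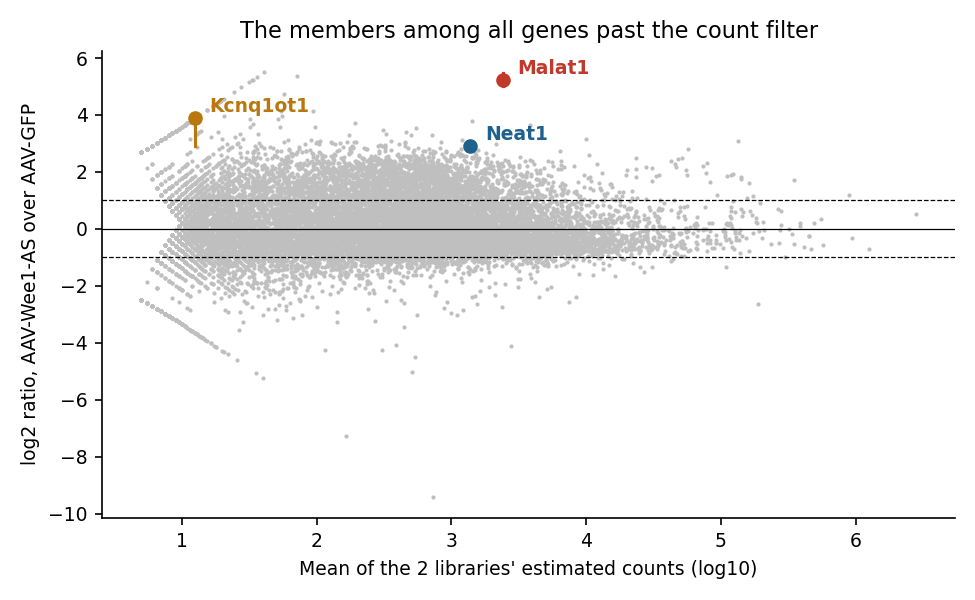
The log2 ratio of AAV-Wee1-AS over AAV-GFP against the mean of both estimated counts (log10) for the 15857 genes kept (grey), with the 3 members in colour and their counting intervals as vertical lines; dashed lines mark 2-fold. Malat1 (5.22) lies above every gene of similar counts, Neat1 (2.91) near the upper edge, and Kcnq1ot1 (fitted value 3.88, interval open at the top) among genes at 0 counts in the AAV-GFP library.

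The genes with the nearest log2 ratio to each member were taken among those with at least 100 counts in either library. For Neat1 they were Atm (77 and 493 counts, log2 ratio 2.91), a DNA damage kinase, Rif1 (49 and 320, 2.92), a protein of replication timing and DNA break repair, and Ppp4r3b (125 and 787, 2.90), a subunit of protein phosphatase 4. For Malat1 no gene was as close. Gm6548 was 0.15 away, followed by B130055M24Rik with 3 and 112 counts, also at the floor, and by Eml5, a microtubule-associated protein, with 5 and 104 counts and a log2 ratio of 4.14. For Kcnq1ot1 no such genes are given, since its fitted ratio is set by the prior count. Likeness here rests on 1 ratio from 2 libraries.

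Base composition and length moved with the ratio across genes. The Spearman coefficient of the log2 ratio was -0.67 with GC content (15105 genes) and 0.36 with transcript length (15857 genes). All these genes share the same pair of libraries. Malat1 falls into the second lowest decile of GC content, where the median log2 ratio was 1.13 and 56.0% of genes were past 2-fold higher, and no other gene of the 1510 in that decile had a higher ratio. Neat1 falls into the fourth decile, with a median of 0.48, 27.7% of genes past 2-fold higher and 9 genes above it. Kcnq1ot1 falls into the lowest decile, with a median of 1.42, 65.2% past 2-fold higher and 5 genes above its fitted value. By length, Neat1 and Kcnq1ot1 are in the top decile, where the median was 1.01 and 50.1% of genes were past 2-fold higher. Of the 94 genes above 20 kb, 51 were past 2-fold higher (54.3%) and 4 were past 2-fold lower. Genes with an A run of at least 12 bases, as Malat1 and Kcnq1ot1 have, were past 2-fold higher in 32.7% of 1557 cases, against 20.6% of the 13548 without one. When the trends with GC content and length were removed by lowess, the log2 ratio was 3.73 for Malat1 and 1.87 for Neat1, with 17 and 205 genes above them. The fitted value of Kcnq1ot1 was then 2.33, which depends on the prior count and is no bound. The values of Malat1 and Neat1 were smaller than before and past 2-fold, in the contrast these genes were chosen by. Over all genes, 1057 were then past 2-fold higher (7.0%) and 1157 lower (7.66%). These are the shares to set beside the counts of lists that are given with the trends removed.

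**Figure D3:**
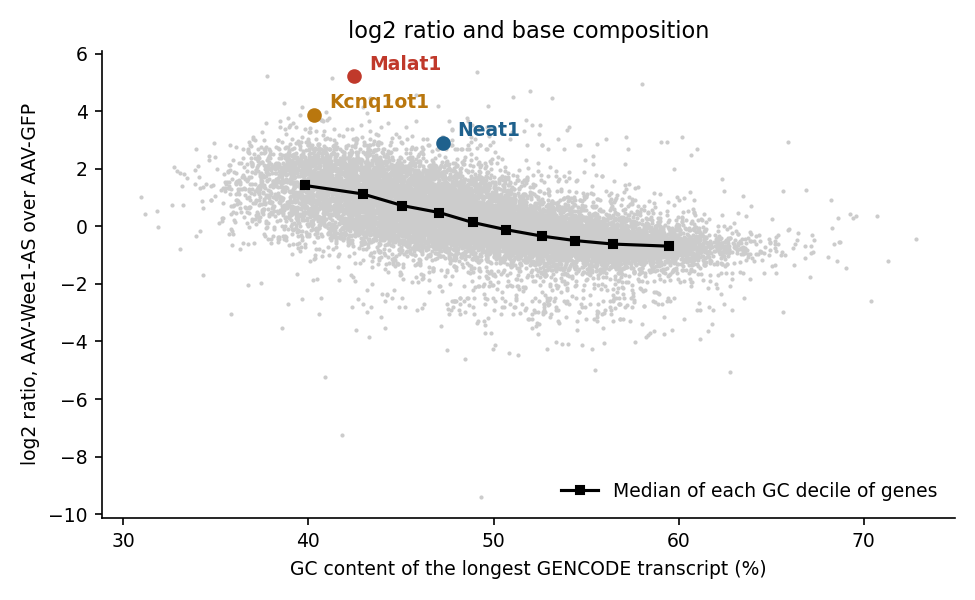
The log2 ratio of AAV-Wee1-AS over AAV-GFP against the GC content of each gene's longest GENCODE transcript (percent), for 15105 genes (grey), with the median of each GC decile of genes (black squares) and the 3 members in colour. The deciles run from a median of 1.42 at the lowest GC content to -0.69 at the highest. All 3 members, chosen by these ratios, lie above the median of their decile, which is no finding. The point of Kcnq1ot1 is its fitted value, which depends on the prior count.

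The genes around Malat1 and Neat1 did not share their ratio. All 14 of the 16 listed neighbours that passed the count filter were below 0, the log2 ratios running from -1.07 to -0.35 around a median of -0.79, while with the trends removed 3 of the 14 were above 0 and the median was -0.26. None was past 2-fold higher, against 22.2% of all genes. Past 2-fold lower was 1 (7.14%, near the 8.71% of all genes), or 7 with upper quartile scaling, where 14.1% of all genes were. The 1 was Ltbp3, a binding protein of latent TGF-beta (339 and 134 counts, -1.07). The nearest upstream of Neat1, Frmd8, which assists the shedding protease ADAM17, had 1958 and 893 counts (-0.87). Rela, the p65 subunit of NF-kappaB, had 3763 and 1816 counts (-0.79), the kinase Map3k11 3142 and 1680 (-0.64) and Znrd2 505 and 263 (-0.67, and 0.38 with the trends removed). With a median of 58.3% GC, these neighbours are richer in GC than Malat1 and Neat1. Within 200 kb of either side of Malat1, leaving out Neat1, 18 genes passed the filter and their highest log2 ratio was 0.08.

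The genes around Kcnq1ot1 were also mostly lower. Of 16 listed genes of the domain 12 passed the filter, and 0 were past 2-fold higher, against 22.2% of all genes. Past 2-fold lower were 4 (33.3%, against 8.71% of all genes: Cdkn1c, Cd81, Tspan32 and the decoy receptor gene Tnfrsf23). The median log2 ratio was -0.76, which was -0.18 with the trends removed. With the trends removed 3 were past 2-fold lower (Tnfrsf23, Tspan32 and Tnfrsf22), against 7.66% of all genes. With upper quartile scaling 6 were, against 14.1% of all genes, and with a pseudocount of 1 on FPKM or TPM 1 was, against 1.94% and 2.76%. Cdkn1c, the imprinted cell cycle inhibitor that is the nearest expressed gene upstream and a known silencing target of Kcnq1ot1, had 140 counts with AAV-GFP and 49 with AAV-Wee1-AS (-1.22, -1.75 to -0.77), a log2 ratio that was -0.37 with the trends removed and then within 2-fold. Slc22a18, an imprinted transporter of the same domain, had 9140 and 4630 counts (-0.72, which turned to 0.10 with the trends removed), and Phlda2, another imprinted target, had 9 and 0 and was under the filter. On the far side, Tssc4, the nearest expressed gene downstream, had 939 and 445 counts (-0.81, and -0.02 with the trends removed). The tetraspanin Cd81 had 27378 and 11062 (-1.04), and Tspan32 had 52 and 8 (-2.20, -3.72 to -1.35). Those last 2 were the genes of the list whose counting interval lay wholly past 2-fold lower. Nap1l4, a histone chaperone (-0.07), and Dhcr7, the last enzyme of cholesterol synthesis (0.02), had log2 ratios near 0, and the sign of Dhcr7 turns under scaling by library totals. Trpm5, Ascl2 and Th were at 0 counts in both libraries. Within 400 kb of Kcnq1ot1, 13 genes passed the filter, of which 4 were past 2-fold lower and 1 past 2-fold higher (7.69%, against 22.2% of all genes), Tnfrsf26 with 25 and 51 counts (1.22).

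**Figure D4:**
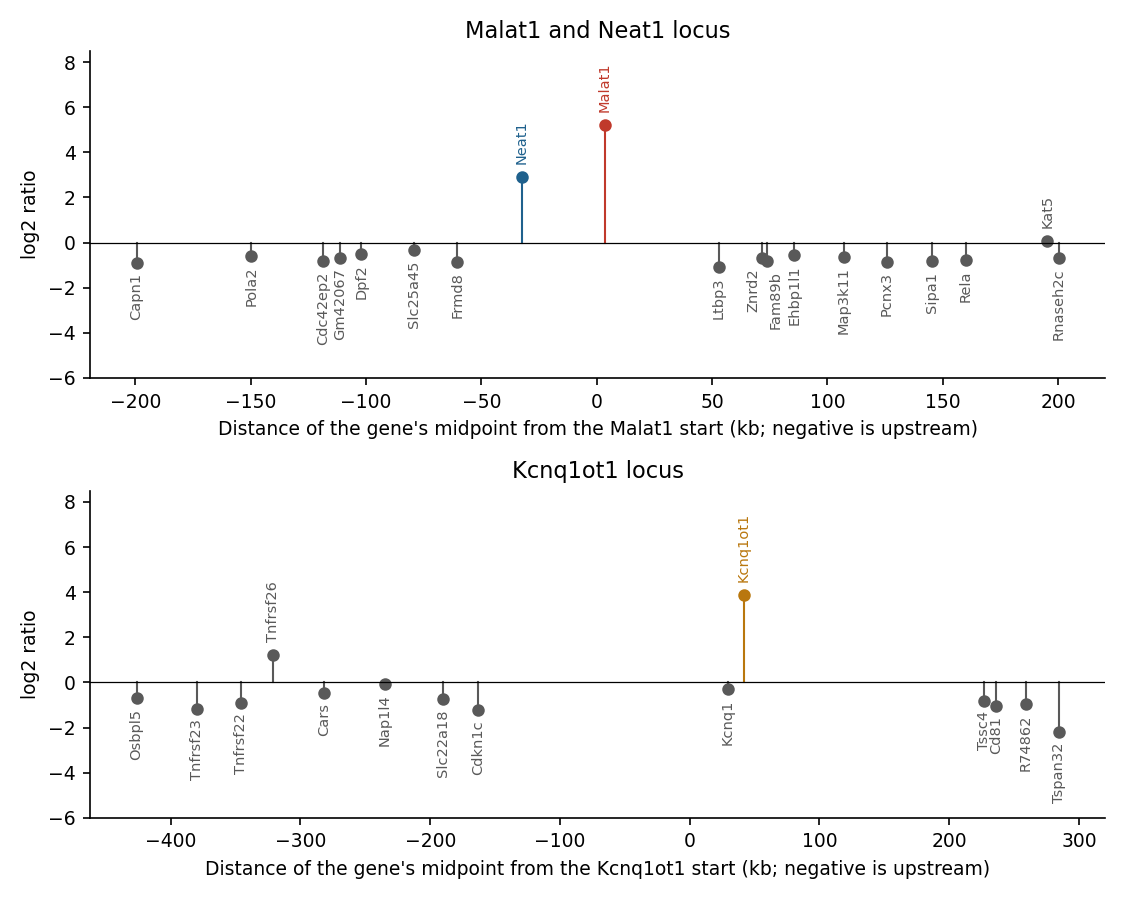
The log2 ratio of AAV-Wee1-AS over AAV-GFP for genes that passed the count filter (1 gene is not drawn), by the distance of the gene's midpoint from the start of Malat1 (upper panel, 200 kb window) or Kcnq1ot1 (lower panel, 400 kb window), in kb. The members (colour) lie at 2.91 and above, and their neighbours (grey) lie between -1.07 and 0.08 around Malat1 and between -2.20 and 1.22 around Kcnq1ot1.

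The promoters of Malat1 and Kcnq1ot1, each 250 bases before to 50 after the start, are shown as a description. Both genes were chosen for being higher, so that they were higher together is no finding. They were read from the RefSeq table (GRCm38.p6), minus strand, at chr19:5802623-5802922 and chr7:143296498-143296797, and 2 of the 3 members matched an entry. Capitals mark the motif CCAAT, the box bound by the factor NF-Y, searched on both strands (CCAAT or ATTGG). Kcnq1ot1 has 3 copies and Malat1 has 0, while 37.4% of all 32851 promoters in the table hold at least 1 copy and 3.37% hold at least 3. The motifs TATAAA (13.6% of promoters), CACGTG (7.15%) and TGACGTCA (1.79%), each on both strands, are in neither window. The Malat1 window has 47.0% GC and 10 CpG, and the Kcnq1ot1 window 53.3% GC and 9 CpG, against medians of 52.7% and 7 over all promoters.
Malat1 promoter: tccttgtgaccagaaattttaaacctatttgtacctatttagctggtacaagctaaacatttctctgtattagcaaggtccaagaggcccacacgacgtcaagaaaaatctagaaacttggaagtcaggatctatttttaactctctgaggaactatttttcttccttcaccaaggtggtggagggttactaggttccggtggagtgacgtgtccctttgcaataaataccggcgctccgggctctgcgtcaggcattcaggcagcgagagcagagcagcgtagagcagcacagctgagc
Kcnq1ot1 promoter: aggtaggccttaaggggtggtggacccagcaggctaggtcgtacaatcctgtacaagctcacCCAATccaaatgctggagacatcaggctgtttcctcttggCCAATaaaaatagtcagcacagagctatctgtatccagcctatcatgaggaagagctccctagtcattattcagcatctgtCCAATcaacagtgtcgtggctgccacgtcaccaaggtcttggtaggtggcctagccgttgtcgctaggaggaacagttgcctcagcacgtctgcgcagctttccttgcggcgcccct

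Other nuclear long noncoding RNAs were read beside the members, and 9 of 20 listed passed the filter. Of these, 5 were past 2-fold higher and 0 lower, with a median log2 ratio of 1.48, against -0.02 over all genes, of which 22.2% were past 2-fold higher and 8.71% lower. With the trends removed the median was 0.82 and 4 were past 2-fold higher, against 7.0% of all genes. These were Fendrr (1.54), Firre (1.46), Pvt1 (1.15) and Ftx (1.08), while Tug1 (0.82) and Dleu2 (0.44) were then within 2-fold. With a pseudocount of 1 on FPKM or TPM, 1 was past 2-fold higher, against 6.49% and 10.1% of all genes. The medians were then 0.20 and 0.36. Tug1, a nuclear RNA tied to Polycomb, had 147 and 703 counts (2.50). Firre, which holds chromosome regions together, had 107 and 294 (1.70), Ftx, of the X inactivation centre, 15 and 55 (1.99), and Dleu2, host of a miRNA pair, 49 and 117 (1.48). Pvt1, the fifth past 2-fold, had 13 and 39 (1.69). Peg13, an imprinted RNA, was the most abundant of them by mean TPM and had 645 and 433 counts (-0.31). Xist and Tsix were at 0 counts in both libraries, which allows up to 3, and Meg3 and Rian had under 10 counts in each. Of 17 long noncoding RNAs of the cytoplasm or hosts of snoRNAs, 3 were past 2-fold higher (17.6%, against 22.2% of all genes) and 2 lower (11.8%, against 8.71%), and the difference between the 2 lists was not tested. This list had a median of 0.10, which turned to -0.10 under upper quartile scaling. Gas5 had 863 and 1138 counts (0.66), Snhg8 583 and 404 (-0.26) and Snhg6 185 and 131 (-0.23). Within this list 2900097C17Rik (Norad), a cytoplasmic RNA that binds Pumilio proteins, had 742 and 3197 counts (2.37, and 1.51 with the trends removed), 1700020I14Rik (listed as Oip5os1, Cyrano) had 231 and 510 (1.40), and the imprinted H19 had 187 and 33 (-2.18). The others past 2-fold were Snhg5, with 42 and 86 counts (1.25), and Snhg18, with 214 and 79 (-1.16). Once the trends were removed, 2 of the 17 were past 2-fold higher and 2 lower, against 7.0% and 7.66% of all genes. The 2 higher were 2900097C17Rik and Epb41l4aos (1.44), and the 2 lower were H19 (-1.50) and Snhg18 (-1.25). Oip5os1 (0.36) and Snhg5 (0.85) were then within 2-fold, and Gas5 turned to -0.08.

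Messenger RNAs of the proteins that meet these RNAs were read in the same libraries. The members were chosen for large ratios, so smaller ratios in these lists are no finding. Shares of each list past 2-fold are to be read against the 22.2% of all genes higher and the 8.71% lower. Of 38 paraspeckle proteins that passed the filter, 12 were past 2-fold higher (31.6%) and 1 lower (Runx3, -1.41), and the median was 0.58. With the trends removed the median was 0.12, and 3 were past 2-fold higher and 3 lower, where 7.0% and 7.66% of all genes were. The core protein Nono had 3841 and 3675 counts (0.20). Hnrnpk, which acts on the choice between the Neat1 forms, had 7827 and 9251 (0.50, which turned to -0.46 with the trends removed). Hnrnpf had 3144 and 4142 (0.66, which turned to -0.04). The largest ratios of the list were those of Fign (52 and 173 counts, 1.95), Hnrnph1 (308 and 993, 1.94) and Zfp24 (241 and 755, 1.9), and each was within 2-fold with the trends removed. Of 27 nuclear speckle proteins, 9 were past 2-fold higher (33.3%) and 0 lower, with a median of 0.67. With the trends removed the median was 0.21 and 3 were past 2-fold higher (Clk4 1.45, Pnn 1.36 and Clk2 1.04), against 7.0% of all genes. Before that, the kinases Clk4 (88 and 496 counts, 2.73) and Prpf4b (215 and 909, 2.33), which phosphorylate splicing factors, and the speckle protein Pnn (140 and 578, 2.29) had the largest. Prpf4b was at 0.55 with the trends removed. The splicing factors U2af1 (-0.07), U2af2 (-0.68), Srsf5 (0.82) and the helicase Ddx39b (-0.65) were the most abundant by TPM and within 2-fold. With the trends removed U2af1 turned to 0.65, Srsf5 to -0.21 and Ddx39b to 0.06.

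Enzymes that make or break down the members are described in the same way. Of 12 genes for 3′ end processing of Malat1, 2 were past 2-fold higher (16.7%, against 22.2% of all genes) and 1 lower (Pop7, an RNase P subunit, -1.02), with a median of 0.12, which turned to -0.08 under upper quartile scaling. With the trends removed 0 of the 12 were past 2-fold in either direction. Trnt1, which adds CCA to the mascRNA, had 124 and 316 counts (1.60), Mettl16, which binds the Malat1 triple helix, had 284 and 626 (1.40), and Elac2, which trims the mascRNA, had 2087 and 1324 (-0.39). The RNase P subunits Pop4 (0.21), Pop5 (-0.18) and Rpp21 (-0.55) were within 2-fold. With the trends removed Mettl16 (-0.03), Elac2 (0.04), Pop5 (0.39) and Rpp21 (0.50) changed sign. Of 16 genes of nuclear RNA decay, 4 were past 2-fold higher (25%, near the 22.2% of all genes) and 0 lower, with a median of 0.22, and 1 (Zfc3h1) was past 2-fold higher with the trends removed, against 7.0% of all genes. The 4 were the helicase Mtrex (302 and 875 counts, 1.79), its partners Zfc3h1 (100 and 412, 2.28) and Rbm7 (533 and 1076, 1.27), and the exosome nuclease Dis3 (170 and 375, 1.39). The exosome subunits Exosc4 (-0.51), Exosc5 (-0.69) and Exosc7 (0.64) and the poly-A binding protein Pabpn1 (-0.01) were within 2-fold. With the trends removed Exosc4 turned to 0.18 and Pabpn1 to 0.78. Of the 13 chromatin enzymes and partners recruited in silencing by Kcnq1ot1, 5 were past 2-fold higher (38.5%, against 22.2% of all genes) and 0 lower, with a median of 0.43, and with the trends removed 2 were past 2-fold higher (Eed and Rnf2) and 1 lower (Rbbp4), against 7.0% and 7.66% of all genes. The 5 were Ezh2 (55 and 133 counts, 1.5), Eed (201 and 420, 1.32) and Suz12 (172 and 646, 2.16) of Polycomb complex PRC2, Rnf2 (113 and 472, 2.30) of PRC1 and the histone H4 methyltransferase Kmt5b (227 and 645, 1.76). Rbbp4 (-0.27), Rbbp7 (0.94), the H3K9 methyltransferase Ehmt2 (-0.66) and Ring1 (-0.66, which turned to 0.10 with the trends removed) were within 2-fold.

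Of 4 known activators of Neat1 transcription, the hypoxia factor Hif1a had 704 and 1411 counts (1.26, which turned to -0.14 with the trends removed), Epas1 6768 and 7951 (0.50), the heat shock factor Hsf1 776 and 444 (-0.54) and Trp53 1420 and 648 (-0.87), so 1 was past 2-fold higher (25%, near the 22.2% of all genes) and 0 lower, and with the trends removed 0 were past it. Of 4 liver mRNAs known for retention in the nucleus, Slc7a2, an arginine transporter, had 8697 and 21552 counts (1.57, and 0.19 with the trends removed), the glucose-sensing factor Mlxipl 5182 and 5012 (0.22), Nlrp6 3740 and 3681 (0.24) and the glucagon receptor Gcgr 13712 and 8108 (-0.49, which turned to 0.22). With the trends removed 0 of these 4 were past 2-fold.

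**Figure D5:**
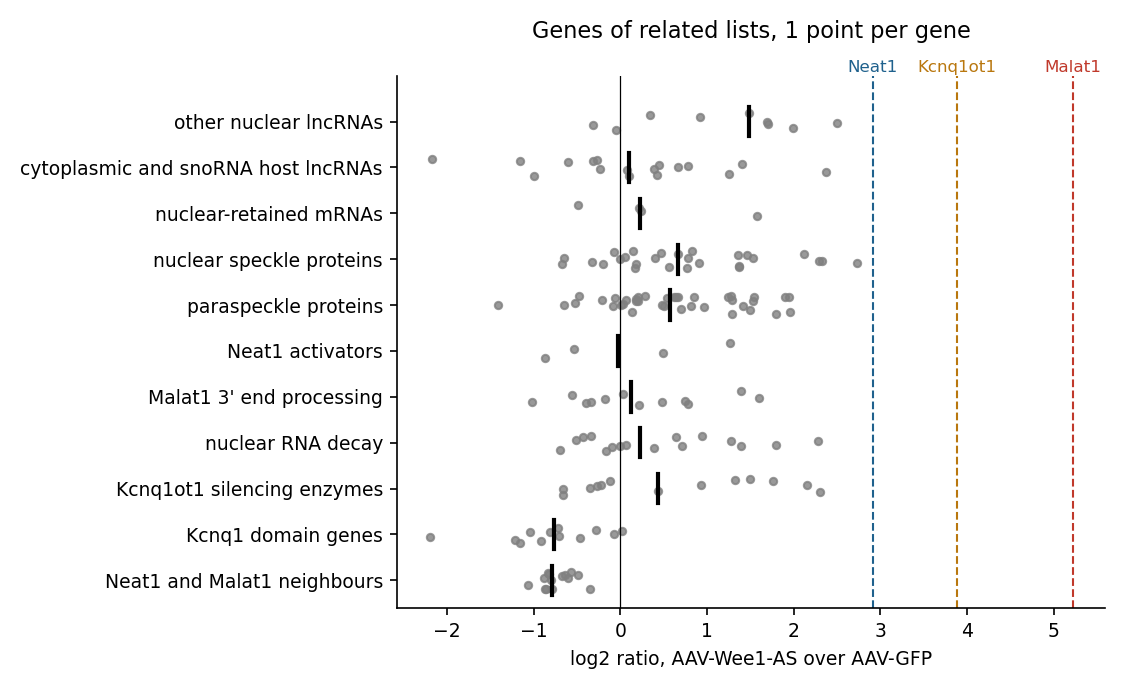
Log2 ratios of AAV-Wee1-AS over AAV-GFP for the genes of 11 lists related to the members, 1 grey point per gene that passed the count filter, with the list median as a black bar and the 3 members as dashed lines. The medians run from -0.79 for the neighbours of Neat1 and Malat1 to 1.48 for other nuclear long noncoding RNAs, and the members, chosen by these ratios, lie to the right, from 2.91.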

How the data were processed

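Poly-A RNA of mouse liver was sequenced in 2 libraries, 1 per group. The authors deposited an estimated count, an FPKM value and a TPM value for each RefSeq transcript of mm10 in each library. The submitters' processing notes name Trimmomatic 0.38, HISAT2 2.1.0, SAMtools 1.9 and StringTie 2.1.3b. The deposited expected counts are FPKM multiplied by length, divided by a library constant and rounded up, so they are estimates shared between overlapping transcripts, and whether the strand or both mates of a pair were counted is not given in the sources used here. Counts were summed per gene symbol and scaled by TMM (edgeR 4.0.16, R 4.3.3) over all genes. Log2 ratios were taken with a prior count of 2 for genes with at least 10 counts in 1 library or both. Intervals are exact (Clopper-Pearson, 95%) and 3 counts or fewer in a library were taken as the floor. GC content came from the longest GENCODE M21 transcript, and trends were removed by lowess (span 0.3, 5 cycles, statsmodels 0.14.6, Python 3.11.15). The steps were tested on simulated data. The members and all gene lists were chosen with earlier results of these data known. Genes named with values are the members, up to 4 of each list by mean TPM, those whose interval lies wholly past 2-fold (the 3 of largest ratio where they exceed 6), the nearest expressed neighbours, and the 3 genes of nearest ratio (for Kcnq1ot1 left out). Ltbp3, Pop7, Runx3, Tnfrsf22, Tnfrsf23, Pvt1, Fendrr, Clk2, Epb41l4aos, Snhg5, Snhg18, Phlda2, Tnfrsf26, Trpm5, Ascl2, Th, Xist, Tsix, Meg3, Rian, Ly6g, Ms4a1 and the other cell type markers were named after their values were seen. Alternatives were other scalings, including DESeq2 1.42.0 size factors, another prior count, FPKM and TPM with a pseudocount of 1, other count filters and transcripts in place of genes. Wee1-AS itself was not analysed here, and 2 genes that the naming rule selects are not reported here by name.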

Additional observations from a re-analysis of the deposited data

How the results depend on the processing

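With other scalings and a prior count of 0.5, the log2 ratio stayed between 5.01 and 5.23 for Malat1, between 2.70 and 2.92 for Neat1 (2.70 with the upper quartile) and between 3.78 and 5.81 for Kcnq1ot1. With a pseudocount of 1 on FPKM or TPM, the log2 values were 3.29 and 3.92 for Malat1, 2.02 and 2.28 for Neat1, and 0.00771 and 0.0153 for Kcnq1ot1, since the pseudocount exceeds the level of Kcnq1ot1. With the trends in GC content and length removed they were 3.73, 1.87 and 2.33. The long Neat1 form's share, 16.8% and 34.9% of counts, was 3.0% and 7.60% of TPM. Genes past 2-fold higher, 3527 with 1381 lower, numbered 1029 with FPKM, 1608 with TPM, 1057 with the trends removed (1157 lower) and 12320 of 39605 for transcripts (9266 lower). The upper quartile moved the median of all genes to -0.22, with 2938 higher and 2232 lower. The ratios of Malat1 and Neat1, which were chosen for being higher, did not turn direction under these settings. Kcnq1ot1, at 0 counts with AAV-GFP, cannot turn with another scaling, prior count or pseudocount, so its direction says nothing on stability. Kcnq1ot1 drops out where at least 10 counts in both libraries or at least 50 counts are required. Had both mates been counted, intervals from halved counts, an alternative chosen after seeing the data, would be 4.90 to 5.59 for Malat1, 2.69 to 3.15 for Neat1 and open above 1.81 for Kcnq1ot1. Of 152 list medians under these settings, also added after seeing the data, 143 stayed within the main median's interval and 9 moved. Among the 9 were the neighbours of Neat1 and Malat1 (-1.0 with the upper quartile). The intervals are not given here, and the count of 143 is no measure of stability. The median of the other nuclear long noncoding RNAs went from 1.48 to 0.20 with a pseudocount of 1 on FPKM and did not count as moved. The medians of the Kupffer cell markers (0.09, and -0.11 with the upper quartile), the cholangiocyte markers (-0.18, and 0.33 with the trends removed) and the red cell markers (-0.89, and 0.06 with the trends removed) changed sign. No paired analysis was possible because each group has 1 library. With 1 library a group, no replicate could be left out, and the vector cannot be told apart from the mouse, the library or its handling.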
